A study of Rattus norvegicus with 23 samples.

Results

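The genes described here are 9 that macrophages express when they take up and store lipid: Spp1, Gpnmb, Trem2, Lgals3, Fabp4, Apoe, Lpl, Cd36 and Plin2. They were chosen by name, as every spot of the array, control spots excluded, that carried one of these symbols. This gave 9 of the 23058 genes with a value, measured by 13 of the 40417 probes that exceeded the negative controls, and none of the 13 probes was lost to that filter. The study asked how the lungs of elderly rats respond to an inhaled nanostructured aerosol of titanium dioxide (TiO2). Male F344 rats, an inbred strain, were 19 months old when exposure began, and breathed through nose-only towers over 4 weeks, on 5 days of each week and for 6 h on each of those days. The exposed rats received TiO2 at 10 mg/m3 and the control rats filtered air. Lungs were taken at the end of exposure (D0) from 6 control and 5 exposed rats, and 28 days later (D28) from 6 control and 6 exposed rats, with 1 array per rat. For the exposed rats of D28 the labels disagree: title and description give D28, which was followed, while the source name gives day 0, and every value of that group rests on this choice. No rat of any group carried a genetic change or another treatment, and the RNA came from unsorted tissue of the accessory lobe of the lung, so that all lung cell types contributed to each value.

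Alveolar macrophages clear inhaled particles and spent surfactant, and surfactant consists mostly of lipid. Macrophages that load themselves with lipid or debris often share a set of transcripts: the lipid receptors Trem2 and Cd36, the lipase Lpl, the lipid carriers Apoe and Fabp4, the droplet coat protein Plin2, the lysosome-linked glycoprotein Gpnmb, the lectin Lgals3 and the secreted phosphoprotein Spp1. Several of these are not specific to macrophages, since adipocytes and capillary endothelium express Fabp4, Cd36 and Lpl, and epithelial cells can express Lgals3 and Spp1.

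Spp1 was the member with the clear response, and its signal came from a single probe of 60 bases, printed here because the main result rests on it.
Spp1 probe: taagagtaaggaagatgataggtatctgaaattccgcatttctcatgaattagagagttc
The array annotation of 1 file placed this probe on chromosome 14 of build rn4, at chr14:6422382-6422441 and read towards lower coordinates, while the 22 files of the older software version listed it as unmapped with the same sequence. The gene names of 12 of the 13 probes were the same in all 23 files. RefSeq promoter windows of build GRCr8 were on hand for 6 of the 9 genes, in 9 windows, and not for Fabp4, Lgals3 and Lpl. The 250 bases before the transcript start are shown for Spp1, the member that differed most, and for Gpnmb and Plin2, a pair that varied together between rats of a group. Capitals mark matches on either strand to 5 motifs: TGANTCA (the AP-1 site), CACATG and CACGTG (E-boxes of the kind that the MITF and TFE family binds), CCAAT and TATAAA.
Spp1, chr14:5619805-5620054, minus strand: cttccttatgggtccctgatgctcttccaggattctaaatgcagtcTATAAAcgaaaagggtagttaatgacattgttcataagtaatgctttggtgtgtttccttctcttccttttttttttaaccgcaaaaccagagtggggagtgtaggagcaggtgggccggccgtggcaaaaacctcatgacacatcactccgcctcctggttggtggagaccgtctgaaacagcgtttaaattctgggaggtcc
Gpnmb, chr4:79340878-79341127, plus strand: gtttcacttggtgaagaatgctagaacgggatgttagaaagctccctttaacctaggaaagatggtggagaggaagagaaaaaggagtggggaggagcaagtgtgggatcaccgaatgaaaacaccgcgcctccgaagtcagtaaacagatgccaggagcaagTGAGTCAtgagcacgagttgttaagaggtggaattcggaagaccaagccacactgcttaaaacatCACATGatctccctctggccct
Plin2, chr5:106229019-106229268, minus strand: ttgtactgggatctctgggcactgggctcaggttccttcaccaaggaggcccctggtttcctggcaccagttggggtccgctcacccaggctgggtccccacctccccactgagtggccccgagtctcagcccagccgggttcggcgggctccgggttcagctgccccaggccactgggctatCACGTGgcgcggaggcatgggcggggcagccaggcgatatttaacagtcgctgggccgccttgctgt
The Gpnmb window held a TGAGTCA that began 87 bases before the start and a CACATG that began 22 bases before it. The Plin2 window shown held a CACGTG 67 bases before the start, whereas a second RefSeq window of Plin2, at chr5:106228538-106228787, held none of the 5 motifs. The Spp1 window held only a TATAAA 204 bases before it. Of all 33461 windows of this length, 6.34% held TGANTCA, 12.1% CACATG, 5.59% CACGTG, 34.0% CCAAT and 12.9% TATAAA. These matches describe the letters and do not show that a factor was bound.

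Spp1 was over-expressed in exposed rats at both time-points, and it was the only member to meet both limits for a differentially expressed gene (DEG), a p below 0.05 after Benjamini-Hochberg adjustment and a fold change (FC) of at least 1.5. Spp1 encodes osteopontin, a secreted phosphoprotein that binds integrins and CD44 and attracts leukocytes. The levels given are log2 processed signals after quantile normalization, so that a step of 1 is a doubling, and they are not compared between probes. On D0, the control rats had Spp1 levels from 7.19 to 9.67, with a median of 8.50. The 5 exposed rats had 9.65, 10.26, 11.05, 11.13 and 11.37. The groups overlapped only by the lowest exposed rat, which lay just under the highest control rat. On D28, control levels ran from 6.88 to 9.88 with a median of 9.14, and exposed levels from 10.16 to 11.52 with a median of 10.99. Here every exposed rat lay above every control rat.

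The difference in Spp1 between exposed and control rats was a log2 FC of 2.20 on D0 (SE 0.51; adjusted p = 0.0198, limma), which is a FC of 4.60 with a 95% interval from 2.19 to 9.65. On D28 the log2 FC was 2.13 (SE 0.49; adjusted p = 0.0332, limma), a FC of 4.37 with an interval from 2.16 to 8.86. Ordered by log2 FC, Spp1 stood at place 17 of 23058 genes on D0 and at place 11 on D28. These values come from unsorted lobe tissue, in which more cells of a type and more RNA per cell cannot be told apart. Of the 9 genes, 1 was a DEG on D0, where 1.8% of all genes were (415 of 23058), and 1 of 9 on D28, where 0.755% were (174 of 23058). The adjusted p was sensitive to single rats. On D0 it rose to between 0.0516 and 0.0582 without control replicate 4 or without exposed replicate 1, 2 or 3, and on D28 to between 0.0582 and 0.0822 without control replicate 2, 5 or 6 or exposed replicate 1, 4 or 6, while the log2 FC remained between 1.94 and 2.46 on D0 and between 1.75 and 2.35 on D28 in all 23 such fits. When the 12 arrays of D28 were fitted alone, the log2 FC of 2.13 had an adjusted p of 0.122 (limma).

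**Figure D1:**
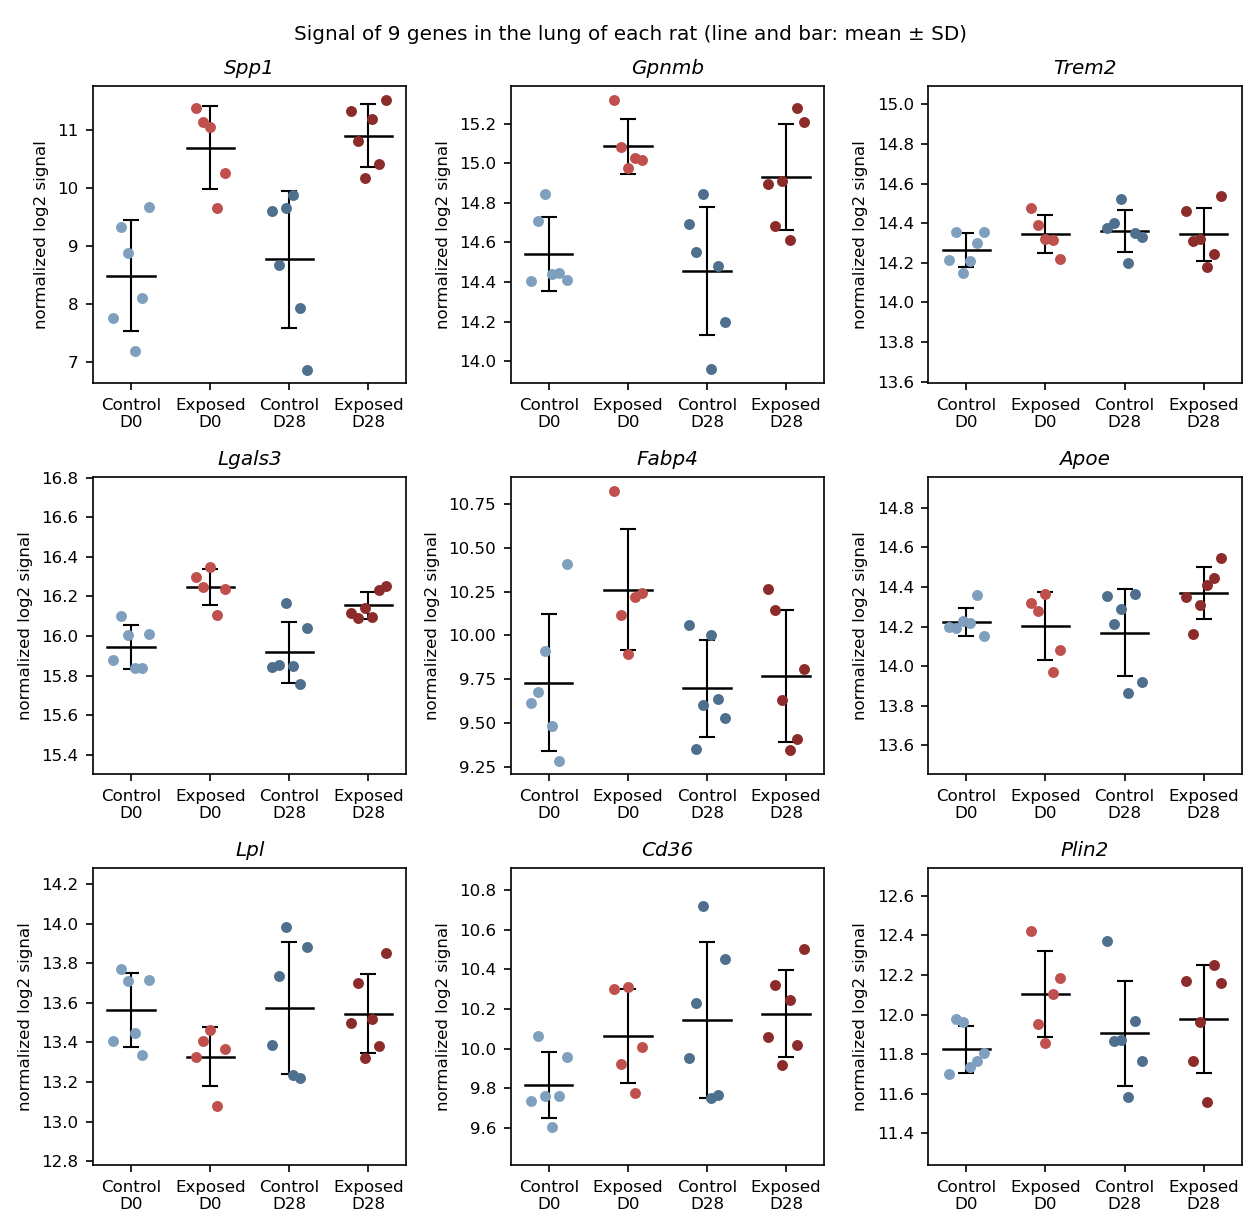
Normalized log2 signal (vertical axes, each with its own scale) of the 9 genes in the lung of each rat, with 1 point per rat, the groups along the horizontal axis, and the mean ± SD of the group as a line and bar. The exposed rats lie above the controls for Spp1 at both time-points, with 1 overlapping rat on D0. The groups overlap at both time-points for Trem2, Fabp4, Apoe, Lpl, Cd36 and Plin2.

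The arrays lay on 5 slides, each scanned on a single day, and the slide was the batch that could be examined. Exposed and control rats of D0 shared 4 slides, and those of D28 shared 3, each with 1 or 2 rats of a group. Spp1 was higher in the exposed rats within every one of them: by 1.38 to 2.66 on the log2 scale on the 4 slides of D0, and by 1.51 to 3.92 on the 3 slides of D28. The 1.38 and the 3.92 were both found on slide 4, and each compares 1 exposed rat with 1 control rat. With the slide as a term, the log2 FC of Spp1 was 2.14 on D0 (SE 0.47; adjusted p = 0.0126, limma) and 2.38 on D28 (SE 0.48; adjusted p = 0.0139, limma). Control replicate 4 of D28 was alone on its slide and was read with a newer software version. Without it the log2 FC of Spp1 on D28 was 2.35 (SE 0.50; adjusted p = 0.0238, limma).

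**Figure D2:**
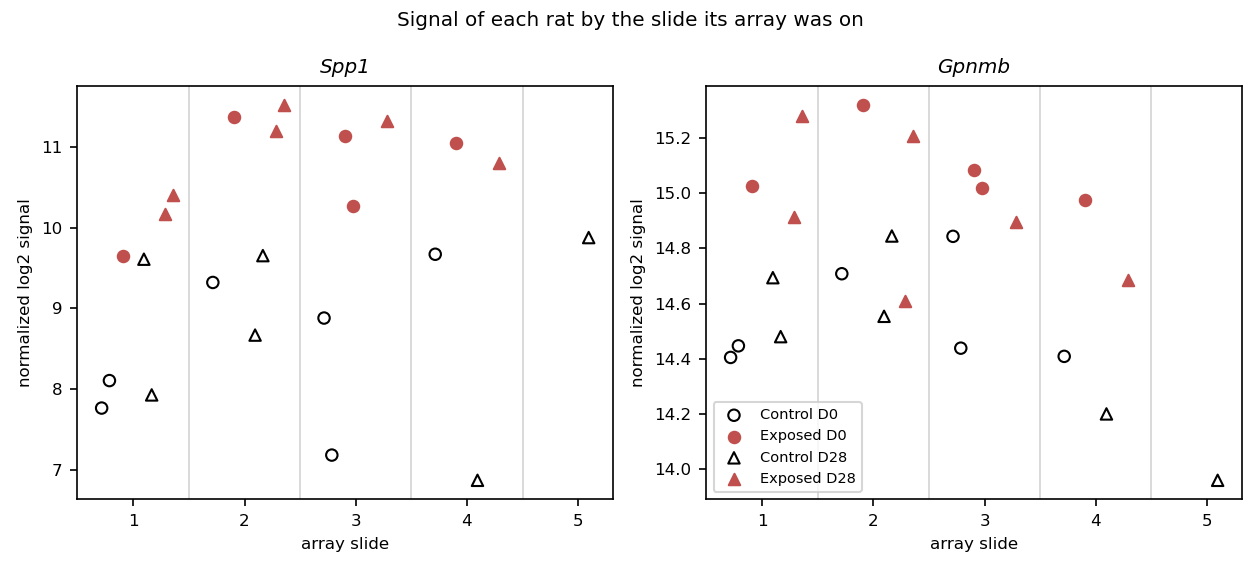
Normalized log2 signal of Spp1 (left) and Gpnmb (right) in each rat, set out by the slide that held its array, with open symbols for control and filled symbols for exposed rats, circles for D0 and triangles for D28. On each slide that held both groups of a day, the mean Spp1 of the exposed rats is higher by 1.38 to 3.92, and the control rat alone on slide 5 has the lowest Gpnmb of all rats. Both ends of that range compare 1 exposed rat with 1 control rat, on slide 4.

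Spp1 also stood out by its spread between rats of the same group. Its pooled SD within groups was 0.89 on the log2 scale, and 93.1% of the genes had a smaller one, where the median gene had 0.32. By group, the SD was 0.96 in the controls and 0.72 in the exposed rats of D0, and 1.18 and 0.53 on D28. The probe was printed 10 times on each array, and the SD between these spots was 0.077, so that the SD between rats was 11.5 times that between spots. With 1 array per rat, the SD between rats also holds differences between arrays and slides, which spots of the same array do not measure. The other members varied less between rats, from an SD of 0.11 for Trem2 to 0.35 for Fabp4. Each of the 9 genes was well above background on all 23 arrays and none of their spots was saturated.

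Gpnmb had a higher mean in exposed rats at both time-points, by less than 1.5-fold. It encodes a transmembrane glycoprotein of lysosomes and phagosomes that macrophages make under lysosomal load. On D0, the control rats ranged from 14.40 to 14.84 with a median of 14.44, and the exposed rats had 14.98, 15.02, 15.03, 15.08 and 15.32, without overlap. On D28, the controls ranged from 13.96 to 14.84 with a median of 14.52 and the exposed rats from 14.61 to 15.28 with a median of 14.90, and 4 of the 6 exposed rats lay above all controls. The log2 FC was 0.54 on D0 (SE 0.15; adjusted p = 0.0510, limma) and 0.48 on D28 (SE 0.14; adjusted p = 0.118, limma), so neither passed the test. The D0 value met the limit on p, though not that on FC, when the slide was a term in the model (log2 FC 0.55; adjusted p = 0.0126, limma). Within slides, the exposed rats were higher by 0.41 to 0.61 on the 4 slides of D0 and by 0.21 to 0.51 on the 3 slides of D28. Without the control rat that was alone on its slide, whose Gpnmb was the lowest of its group, the log2 FC was 0.38 on D28 (adjusted p = 0.229, limma) and the adjusted p on D0 was 0.0275. Without control replicate 3 of D0, the log2 FC of D0 reached 0.60 (adjusted p = 0.0393, limma), which met both limits.

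Lgals3, which encodes galectin-3, a lectin that binds galactosides and marks damaged phagosomes, differed by a small and regular amount on D0. The controls of D0 had levels from 15.84 to 16.10 with a median of 15.94, and the exposed rats 16.11, 16.24, 16.25, 16.30 and 16.35. The lowest exposed rat lay just above the highest control. The log2 FC was 0.30 (SE 0.08; adjusted p = 0.0428, limma), a FC of 1.23, which was below the limit of 1.5. The adjusted p ran from 0.0205 to 0.119 over the other ways of processing and to 0.107 when single arrays were left out. On D28 the controls had a median of 15.85 and a highest value of 16.16, and the exposed rats ranged from 16.09 to 16.25, so that 4 of 6 overlapped the controls. The log2 FC on D28 was 0.24 (SE 0.08; adjusted p = 0.157, limma). Its probes share 57 of their 60 bases, so they do not give independent readings, and their log2 FC on D0 were 0.28 and 0.32. The values above are for the mean of these probes. Tested singly among all probes, neither met the limit on p on D0 (adjusted p = 0.0991 and 0.0785, limma). The groups of D0 did not overlap for the first probe but did for the second. Gpnmb and Lgals3 were the members whose groups did not overlap on D0, which held for 4.32% of all genes, and Spp1 was the only such member on D28, against 1.22% of all genes.

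The lipid receptor Trem2 and the lipoprotein component Apoe differed little. Trem2 senses lipids and apolipoproteins at the surface of macrophages and signals through the adaptor Tyrobp. Trem2 levels ran from 14.15 to 14.52 in the 12 control rats and from 14.18 to 14.54 in the 11 exposed rats, and its log2 FC was 0.08 on D0 (95% interval -0.08 to 0.24) and -0.02 on D28 (-0.17 to 0.14). These intervals, which are not adjusted for the number of genes, leave out changes of more than 1.18-fold on D0. Apoe, which carries cholesterol and phospholipid out of macrophages, had a log2 FC of -0.02 on D0 (95% interval -0.23 to 0.19) and 0.20 on D28 (95% interval -0.00085 to 0.40; adjusted p = 0.458, limma). On D28, 3 of the 6 exposed rats had more Apoe than any control, with values from 14.16 to 14.54 against 13.87 to 14.37 in the controls.

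The genes for fatty acid uptake and handling, Lpl, Cd36 and Fabp4, did not pass the test at either time-point. Lpl encodes lipoprotein lipase, which frees fatty acids from triglyceride-rich particles. Its levels on D0 ran from 13.34 to 13.77 in controls and were 13.08, 13.33, 13.37, 13.41 and 13.46 in exposed rats, with overlap. The log2 FC was -0.24 on D0 (SE 0.14; adjusted p = 0.613, limma) and -0.03 on D28 (SE 0.14; adjusted p = 0.977, limma). With the slide as a term the value of D0 was -0.28 and its adjusted p 0.0455 (limma), the exposed rats being lower on all 4 slides, by between 0.19 and 0.44. On D28, the probes of Lpl differed in sign, with a log2 FC of 0.06 for one and -0.12 for the other.

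Fabp4, a fatty acid carrier of adipocytes, macrophages and capillary endothelium, ran from 9.28 to 10.41 in the controls of D0 with a median of 9.65, and was 9.90, 10.12, 10.22, 10.24 and 10.83 in the exposed rats. The highest control lay above 4 of the 5 exposed rats, and the next control, at 9.91, just above the lowest of them. The log2 FC on D0 was 0.53 (95% interval 0.10 to 0.96; adjusted p = 0.244, limma), and that on D28 was 0.07 (95% interval -0.34 to 0.48). Within slides, Fabp4 was higher in the exposed rats of D0 on 3 of 4 slides, and the differences ran from -0.52 to 1.15.

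Cd36 encodes a receptor for long-chain fatty acids and oxidised lipoproteins, and its 3 probes did not read the same part of the transcript. The probe printed 10 times per array lies at chr4:13525426-13525485 of rn4, and had a log2 FC of 0.15 on D0 and 0.18 on D28. The second lies at chr4:13471839-13471898, and its first 42 bases are the last 42 of the RefSeq window around the start of Cd36, so that it begins in the first exon. Its log2 FC was 0.43 on D0 and 0.02 on D28. The third, whose match spans chr4:13465101-13471898 in 1 file, bore another name (NEWGENE_2301) and another position in the other 22 files, and had a log2 FC of 0.17 on D0 and -0.10 on D28. The last 30 bases of these 2 probes are shown because they end alike, with the 21 bases they share in capitals.
A_44_P1144488: ttctgtgtaGTAGCTTACAAATGATTCGAA
A_44_P1144483: ttttcaaagGTAGCTTACAAATGATTCGAA
None of the 3 probes passed the test on either day. For the mean of the 3 probes, the log2 FC was 0.25 on D0 (SE 0.16; adjusted p = 0.657, limma) and 0.03 on D28 (SE 0.15; adjusted p = 0.978, limma), and without the probe of differing name it was 0.29 and 0.10.

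Plin2, which coats lipid droplets, had a log2 FC of 0.28 on D0 (95% interval -0.01 to 0.57; adjusted p = 0.453, limma) and of 0.07 on D28 (95% interval -0.20 to 0.35). Its levels on D0 were 11.70 to 11.98 in controls, with a median of 11.79, and 11.86, 11.95, 12.10, 12.18 and 12.42 in exposed rats, of which 3 lay above all controls. On D28, the groups overlapped almost wholly, from 11.58 to 12.37 in controls and from 11.56 to 12.25 in exposed rats.

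**Figure D3:**
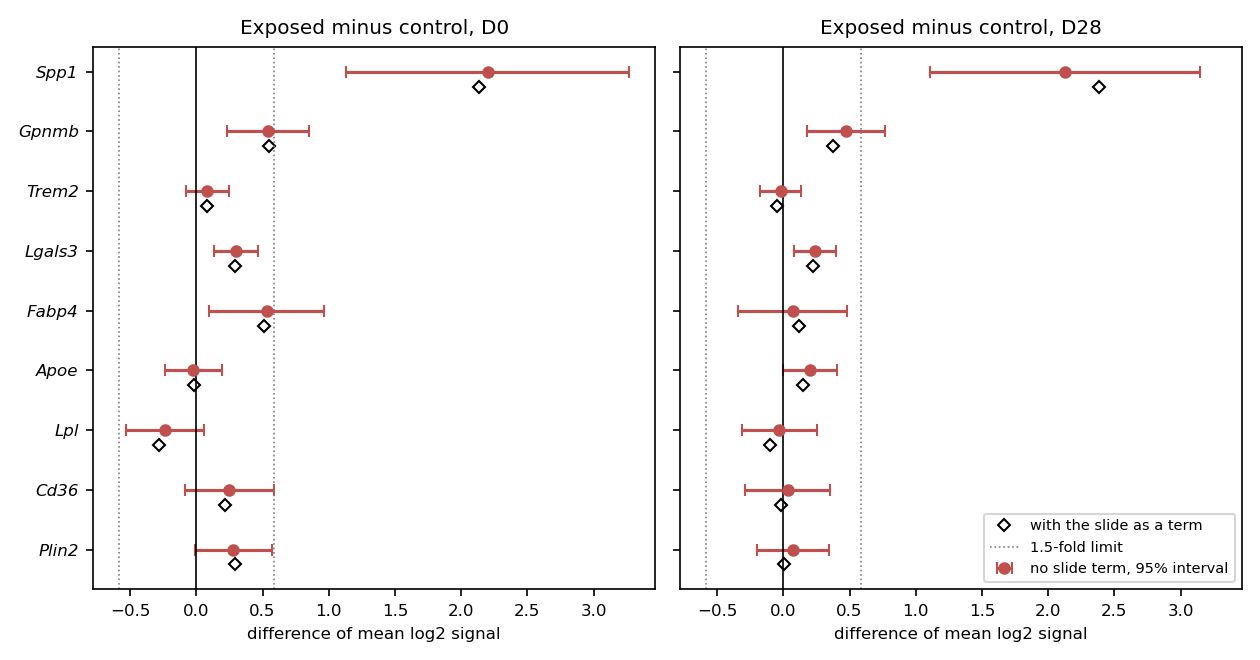
Difference of mean log2 signal between exposed and control rats for the 9 genes on D0 (left) and D28 (right), with its 95% interval from the model without a slide term (circles and bars), the value with the slide as a term (diamonds) and the 1.5-fold limit (dotted lines). Spp1, at 2.20 and 2.13, is the only gene whose interval lies beyond the fold limit, and Gpnmb and Lgals3 have intervals above 0 on both days.

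By the adjusted p alone, 2 of the 9 genes passed on D0 (Spp1 and Lgals3) and 1 on D28 (Spp1), where 2.89% and 1.31% of all genes did. Across the 9 genes, 7 had a higher mean in exposed rats on D0 and 7 on D28, where 49.9% and 48.9% of all genes did. Their median log2 FC was 0.28 on D0 and 0.07 on D28, beside medians of -0.00065 and -0.0054 over all genes. An unadjusted p below 0.05 was found for 4 members on D0 (Spp1, Gpnmb, Lgals3 and Fabp4) and for 3 on D28 (Spp1, Gpnmb and Lgals3), beside 12% and 11% of all genes. The 9 genes are not independent of each other and were chosen with earlier results of these data known, so these counts describe the list only.

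The comparisons between time-points share groups with those above, so they are not separate evidence. No member passed the test for a difference in the exposure effect between D28 and D0, where 7 genes of 23058 did (0.0304%), and no member had an unadjusted p below 0.05. For Spp1 this difference was -0.07 on the log2 scale, with a 95% interval from -1.55 to 1.40, which is too wide to show that the effect was kept in full. The largest of the 9 in size was that of Fabp4, at -0.46 (95% interval -1.06 to 0.14; unadjusted p = 0.124, limma). No member was a DEG between the control rats of D28 and D0 (0.612% of all genes were), or between the exposed rats of D28 and D0 (0.351%). By an unadjusted p below 0.05 in limma, 1 member differed in the controls (Cd36) and 1 in the exposed rats (Fabp4), beside 13.3% and 7.7% of all genes. The log2 FC of D28 over D0 was 0.33 for Cd36 in the controls (adjusted p = 0.360, limma) and -0.49 for Fabp4 in the exposed rats (adjusted p = 0.577, limma). The probes of Cd36 disagreed here, with 0.49 and 0.62 for those that end alike and -0.12 for the one printed 10 times.

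Within groups, some members rose and fell together from rat to rat. The deviations of the 23 rats from their group means were correlated for the 36 pairs of members, with p-values from 100000 permutations adjusted over the pairs, of which the smallest that can be had is 1e-05. The permutations exchanged rats within groups without regard to the slide, so the p-values make no allowance for differences between slides. Lpl and Cd36 were the closest pair (Pearson r = 0.90, permutation p = 1e-05, adjusted 0.00036; Spearman rho = 0.89, permutation p = 1e-05, adjusted 0.00036). Lgals3 varied with both, at r = 0.79 with Cd36 (rho = 0.74; permutation p = 6e-05 and 2e-04, adjusted 0.00108 and 0.0018) and r = 0.78 with Lpl (rho = 0.76; permutation p = 0.00015 for each, adjusted 0.00135 and 0.0018). Gpnmb varied with Plin2 (r = 0.77, rho = 0.76; permutation p = 0.00012 and 0.00016, adjusted 0.00135 and 0.0018). The 2 rats farthest from the median of the first gene named were then left out, whatever their place for its partner. This gave r of 0.86 for Lpl with Cd36, 0.69 and 0.71 for Lgals3 with Cd36 and with Lpl, and 0.83 for Gpnmb with Plin2. With all 23 rats kept and slide means removed in addition to group means, r for these 4 pairs was 0.78, 0.74, 0.74 and 0.72. On slides 1 and 2, the ones with at least 6 arrays, r was 0.77 and 0.80 for Lpl with Cd36, 0.34 and 0.93 for Lgals3 with Cd36, 0.67 and 0.75 for Lgals3 with Lpl, and 0.90 and 0.77 for Gpnmb with Plin2. The Cd36 values in these pairs are means over its probes, whose spread between rats was unequal. The SD between rats was 0.19 for the Cd36 probe printed 10 times, and 0.34 and 0.40 for those that end alike. The pairs were not correlated probe by probe. Of the 36 pairs, 5 had an adjusted p below 0.05 by Pearson r, and 4 of them by Spearman rho too. The pair that passed by r alone was Gpnmb with Apoe (r = 0.62, rho = 0.57, permutation p = 0.00683 and 0.011, adjusted 0.0492 and 0.0789). Its r was 0.50 without the 2 rats farthest in Gpnmb and 0.36 with slide means removed. No pair that held Spp1 passed the test. Over all 23 rats its highest r was 0.50, with Fabp4 (rho = 0.52, permutation p = 0.0185 and 0.0141, adjusted 0.0952 and 0.0849). That r was 0.49 without the 2 rats farthest in Spp1 and 0.54 with slide means removed. Without those 2 rats, the r of Spp1 with Lgals3 was 0.55, and with slide means removed its r with Apoe was 0.54.

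**Figure D4:**
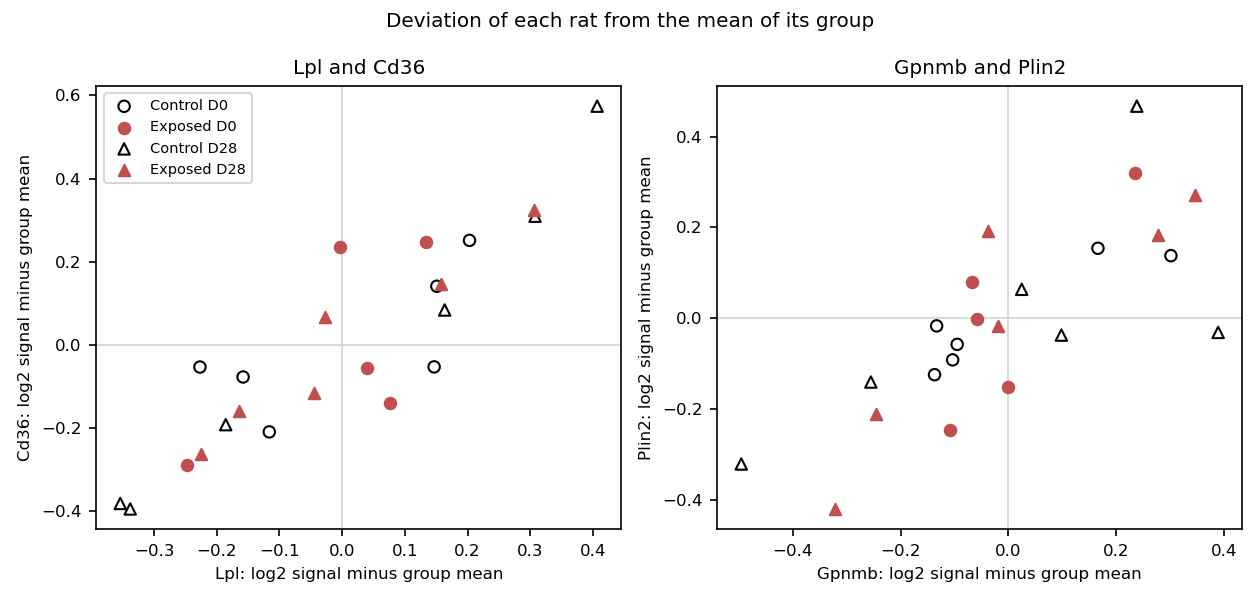
Deviation of each of the 23 rats from the mean log2 signal of its group, for Cd36 against Lpl (left) and Plin2 against Gpnmb (right), with open symbols for control and filled symbols for exposed rats, circles for D0 and triangles for D28. The points rise together in both panels, with r of 0.90 and 0.77. Cd36 is the mean of its probes.

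The genes whose levels over all 23 arrays were most like that of Spp1 were Mmp7 (r = 0.93), a matrix metalloproteinase, Retnla (0.91), a secreted protein of alternatively activated macrophages and epithelium, Tac4 (0.90), a tachykinin precursor, Lpo (0.89), an airway peroxidase, and Orm1 (0.89), an acute-phase plasma protein. With group means removed, r was between 0.68 and 0.81 for these 5 genes. Since the exposed rats were among the arrays correlated, their exposure effects follow in part from the choice and are given without a test: the log2 FC ran from 0.74 for Tac4 to 3.56 for Orm1 on D0 and from 0.62 to 3.62 for the same genes on D28. For Gpnmb they were Atp6v1b2 (0.93), a subunit of the vacuolar proton pump, Obsl1 (0.92), a cytoskeletal adaptor, Grn (0.91), the lysosomal protein progranulin, Prdx5 (0.90), a peroxiredoxin, and Slc7a7 (0.89), an amino acid transporter subunit. With group means removed, r was between 0.76 and 0.92. Their log2 FC, again a description, ran from 0.32 for Atp6v1b2 to 0.77 for Slc7a7 on D0 and from 0.31 for Prdx5 to 0.89 for Slc7a7 on D28. Likeness here is only the correlation over the same arrays, which share slides and exposure.

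Of 66 further genes of the same pathways, 4 were over-expressed DEGs on D0 and 1 on D28, with none under-expressed, beside 1.1% of all genes over-expressed and 0.703% under-expressed on D0, and 0.486% and 0.269% on D28. Their median log2 FC was 0.10 on D0 and 0.09 on D28. These lists too were chosen with earlier results of these data known. The 10 receptors for osteopontin held no DEG, and their median was -0.01 on D0 and -0.12 on D28. By the adjusted p alone, 1 of the 10 passed, on D0, where 2.89% of all genes did. It was lower in exposed rats. Cd44, the hyaluronan receptor that also binds osteopontin, had a log2 FC of 0.16 on both days (adjusted p = 0.500 on D0 and 0.492 on D28, limma). Of the 7 genes of Trem2 signalling and shedding none was a DEG, with Tyrobp, its signalling adaptor, at 0.16 on D0 and 0.09 on D28.

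Lipoprotein uptake and lipase handling (11 genes) held DEGs on D0 only, namely Angptl4 and Olr1. Angptl4, a secreted inhibitor of lipoprotein lipase, had a log2 FC of 1.09 on D0 (SE 0.26; adjusted p = 0.0240, limma) and -0.11 on D28 (SE 0.25). Its control mean was 9.05 ± 0.43 on D0 (SD, n = 6) and 10.15 ± 0.47 on D28 (SD, n = 6), a change of 1.11 between the control groups that passed the test as well (adjusted p = 0.0341, limma), and the exposed rats were at 10.13 ± 0.46 and 10.04 ± 0.43. The controls of D0 were thus the group that stood apart. Olr1, a receptor for oxidised LDL, had 0.79 on D0 (SE 0.19; adjusted p = 0.0265, limma) and 0.15 on D28. Both calls could be lost with 1 rat: that of Angptl4 without control replicate 2, 3, 4 or 5 or exposed replicate 1, 4 or 5 of D0 (log2 FC 0.95 to 1.06, adjusted p from 0.0521 to 0.0840, limma), and that of Olr1 without control replicate 1, 2, 4 or 5 or exposed replicate 4 or 5 (0.57 to 0.79, adjusted p from 0.0505 to 0.0673, limma). With only the arrays of D0, the adjusted p of Olr1 was 0.0971 (limma). The difference between days was not significant for any of the 66 genes by the adjusted p of limma, and 8 of them had an unadjusted p below 0.05. Gpihbp1, which holds Lpl on capillary endothelium, had a log2 FC of -0.28 on D0 and -0.05 on D28, and was well above background on 17 of 23 arrays.

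Lipid storage, breakdown and efflux (18 genes) held 1 DEG, Npc2, the lysosomal carrier of cholesterol, at a log2 FC of 0.76 on D0 (SE 0.13; adjusted p = 0.00197, limma) and 0.40 on D28 (SE 0.13; adjusted p = 0.145, limma). Npc2 levels were 13.54 to 13.90 in the controls of D0 and 14.31 to 14.82 in the exposed rats, without overlap. Soat1, which esterifies cholesterol for storage, had 0.38 on D0 and 0.23 on D28 (adjusted p = 0.653 and 0.819, limma), and the cholesterol exporter Abcg1 had 0.06 and 0.12. Of the 9 transcription factors of lipids and lysosomes none was a DEG, and Pparg, which drives lipid uptake genes in alveolar macrophages, was at -0.04 and -0.07. On D0, 1 of the 9 met the limit on p, beside 2.89% of all genes, and was higher in exposed rats. Among 11 phagolysosome genes, Ctsk, a cathepsin of macrophages and osteoclasts, was a DEG on both days, with a log2 FC of 0.67 on D0 (SE 0.14; adjusted p = 0.00958, limma) and 0.84 on D28 (SE 0.14; adjusted p = 0.00270, limma). Its exposed and control rats did not overlap on either day, and with only the arrays of D28 its adjusted p was 0.0648 (limma). The median of these 11 genes was 0.27 on D0 and 0.23 on D28, and 9 of them were higher in exposed rats at each time-point.

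**Figure D5:**
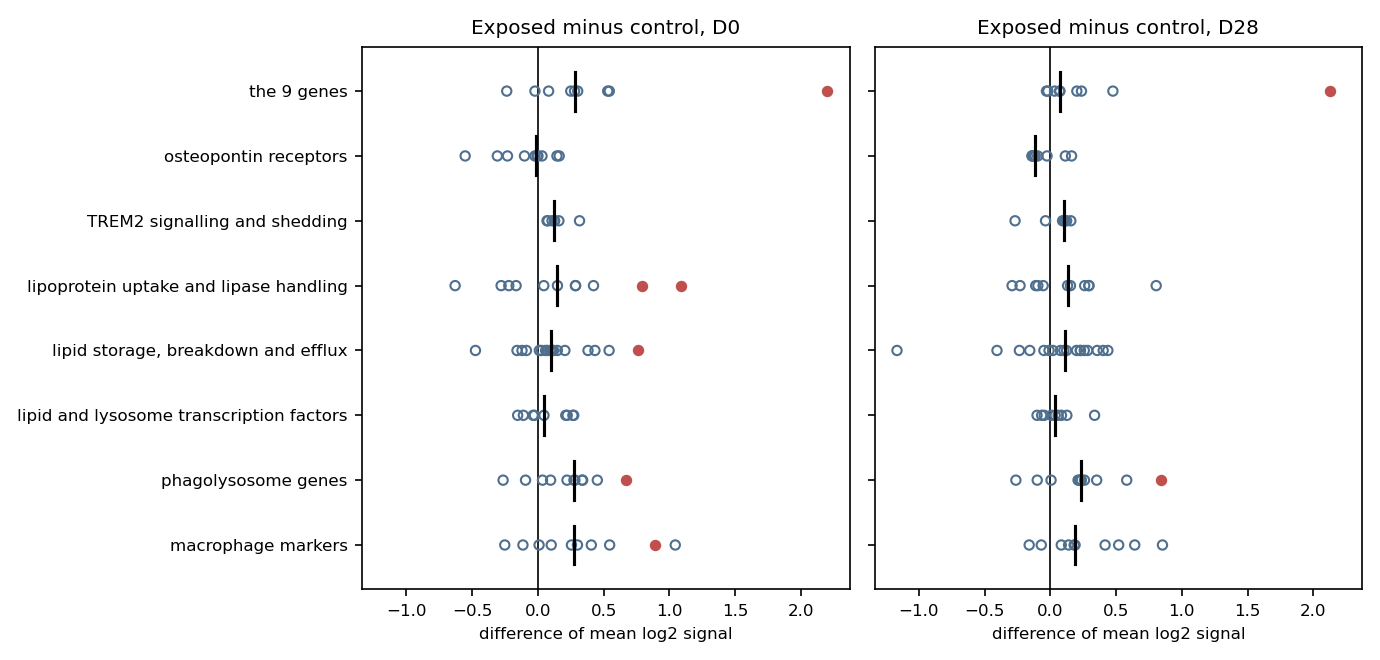
Difference of mean log2 signal between exposed and control rats on D0 (left) and D28 (right) for each gene (points) of the 9 genes, the 6 lists of related genes and the macrophage markers, with the median of a list as a black line and DEGs filled. Apart from Spp1, the DEGs are Angptl4, Olr1, Npc2, Ctsk and the macrophage marker Siglec1 on D0, and Ctsk on D28. The macrophage markers include Marco, which was not well above background on most arrays.

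Markers of cell types differed between the groups to varying degrees, mostly without passing the test, and their part in the results above was not tested. Of 10 macrophage markers, 8 were higher in exposed rats on each day, with a median log2 FC of 0.28 on D0 and 0.18 on D28. Marco, which was not well above background on most arrays, is counted among the 8 and in both medians. The summed signal of the 10 ran from 24412 to 31594 in the controls and from 27461 to 39236 in the exposed rats of D0, and from 23584 to 28002 and from 27766 to 32489 on D28. Cd68, a glycoprotein of macrophage lysosomes, had a log2 FC of 0.55 on D0 (adjusted p = 0.00291, limma) and 0.42 on D28 (adjusted p = 0.0294, limma), while Siglec1, the DEG of D0, had 0.89 and 0.52. Without exposed replicate 3 of D28, Siglec1 met both limits on D28 as well (0.61, adjusted p = 0.0491, limma). The scavenger receptor Marco was not well above background on any control array, nor on the exposed arrays but 2 of D0, so no FC is given. Spp1 differed by more than any of the macrophage markers that were measured in both groups, as a log2 FC. This does not tell more cells from more RNA per cell, which was not tested. Of the 6 adipocyte markers none was a DEG, with 1 higher in exposed rats on D0 and 3 on D28. Those higher on D28 were Adipoq, Adrb3 and Lep. Of these, Adrb3 and Lep were well above background on at most 2 arrays of any group. Cidec, a droplet protein of fat cells, had a log2 FC of 0.86 on D0 (adjusted p = 0.296, limma) and -0.59 on D28 (adjusted p = 0.581, limma). The summed signal of the list came almost wholly from Cfd, whose group means were 12.57 to 12.71 on the log2 scale against at most 5.44 for the other members, and Cfd is not limited to fat cells. The sum ranged from 5038 to 7925 in controls and 5385 to 6930 in exposed rats on D0, and from 5091 to 8607 and 5247 to 7849 on D28. Plin1, which coats the droplets of fat cells, was not well above background on any array, and the adipocyte hormone Adipoq was so on 15 of 23 arrays. The 7 type II pneumocyte markers, whose cells make surfactant, were all higher on D0, with a median log2 FC of 0.24, and 6 of them on D28, with a median of 0.11. They held no DEG, although 1 of the 7 met the limit on p on D0. All 4 type I pneumocyte markers were lower on both days, with medians of -0.26 and -0.18. None was a DEG, although Aqp5, a water channel, met the limit on p on D0 (-0.47, adjusted p = 0.0317, limma). All 7 endothelial markers were lower, with a median of -0.18 on D0 and -0.32 on D28, and none was a DEG. By the adjusted p alone, 1 of these 7 passed, on D28. The markers of neutrophils, T cells, B cells and secretory airway cells held no DEG. The 3 cardiac muscle markers had lower means on both days, but Nppa, one of them, was not well above background on any array. Myl7, a myosin light chain of atrial muscle, met both limits, at -0.60 on D0 and -0.63 on D28, close to the fold limit. That call was lost on D0 under 5 of 11 other ways of processing (-0.58 to -0.45) and on D28 under 3. It was also lost without control replicate 1, 2 or 5 or exposed replicate 2 or 3 on D0 (-0.58 to -0.55), and without control replicate 1 on D28 (-0.56).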

How the data were processed

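RNA from the accessory lobe of 23 rats, 1 array per rat, was hybridised to 1-colour Agilent rat arrays, on which 62976 spots were read. The deposited values used here are the processed signal intensity of each spot, which the authors obtained with Agilent Feature Extraction (11.0.1.1 for 22 arrays and 12.0.1.1 for 1, per the file headers) after background and spatial correction, without scaling between arrays, and flags of 0 or 1 for background and saturation. The values that the authors deposited for all arrays together served as an alternative. The labels speak of 6 rats in every group, and 5 exposed rats of D0 were analysed here.

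Spots of a probe were averaged on the log2 scale, control spots and outlier spots were left out, and arrays were quantile normalized. To be kept, a probe had to exceed the 95th percentile of the 308 negative controls on at least 5 arrays (40417 of 45598; 32415 with a symbol), and probes were averaged by gene (23058 genes, 6970 with several probes). Symbols came from the file of control replicate 4 of D28 by probe name. A linear model with 4 groups (19 residual degrees of freedom) and empirical Bayes moderation was fitted in limma 3.58.1 (R 4.3.3, with the data.table package in version 1.17.8); sequences and figures were made with python 3.11.15 and matplotlib 3.10.9. The tests were checked on simulated data. A DEG had a FC of at least 1.5 and a p below 0.05 after Benjamini-Hochberg adjustment across the 23058 genes.

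Named were the 9 genes, the DEGs of the related lists, 10 related genes whatever their change, and the 5 genes most like Spp1 and Gpnmb. Markers of cell types were named as DEGs, by their place in a list, or, for Cidec, Cfd, Aqp5, Nppa, Adrb3 and Lep, after their values were seen. The members and lists were chosen with earlier results of these data known. Replicates are different rats, and replicate numbers do not link rats of different groups: over 11 pairs of equal number, the deviations from group means correlated at -0.25 to 0.43, with 3 above 0.1. The arrays lay on 5 slides of 1 to 7 arrays, with 69.5% to 77.9% of the spots well above background per array. The number of arrays limits the precision. Alternatives were 75th percentile scaling, normexp background correction (offset 50), the values deposited for all arrays together, no or a stricter filter (18 arrays), the probe with the highest mean, the slide as a block, a replicate block, only the arrays of a day, no fold limit, each array left out, and, added after seeing the data, Cd36 without the probe of differing name.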

Additional observations from a re-analysis of the deposited data

Results flagged for a closer look

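Control replicate 5 of D0 had an Apoe level of 14.36 on the log2 scale, the highest of its group of 6 and apart from the nearest rat at 14.23. The gap was 0.627 of the range of the group. Of 36 groups examined (9 genes in 4 groups), this was the only such value, and chance alone gives such a value in about 1 of 20 groups, so that 1 in 36 is no more than chance gives.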

How the results depend on the processing

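Over the ways of processing other than leaving out an array, Spp1 had a log2 FC from 1.97 to 2.21 on D0, past both limits each time, and from 1.92 to 2.38 on D28, where it missed the limit on p with only the arrays of D28 (2.13, adjusted p = 0.122, limma) and with a replicate block (2.13, adjusted p = 0.0653, limma). In both settings the number of DEGs among the 9 genes on D28 was 0. The replicate block also gave 1 DEG between control days among the 66 related genes, and changed no other count of the members or related genes by more than 1.5 times. Without the fold limit, the DEGs on D0 were 2 of the 9 genes, 9 of the 66 related genes and 666 of all genes, and on D28 2 of the 66 and 303 of all. With normexp they were 222 of all genes on D0, 94 on D28 and 14 for the difference between days. With only the arrays of D28 they were 41 of all genes and 0 of the 66. With the slide as a block there were 128 between exposed days.

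Signs that turned belonged to values that had not passed the test. On D28 these were Lpl by its brightest probe (0.0626) and Cd36 with the slide as a block (-0.0165). With the slide as a block, Spp1 had 0.25 for the difference between days and -0.10 between control days, and Cd36 by its brightest probe had -0.12 between control days. The cause was not tested.

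When each array was left out, the DEGs among the 9 genes were 0 to 2 on D0 and 0 to 1 on D28. Among the 66 they were 2 to 5 on D0, 1 to 2 on D28 and 0 to 3 between control days. Of all genes they were 318 to 443 on D0, 111 to 203 on D28, 6 to 12 for the difference, 88 to 200 between control days and 56 to 89 between exposed days. The log2 FC of Spp1 ran from 1.94 to 2.46 on D0 and from 1.75 to 2.35 on D28. Values whose sign turned were Apoe on D0 (-0.062 to 0.036), Trem2 (-0.058 to 0.014), Fabp4 (-0.029 to 0.15), Lpl (-0.10 to 0.052), Cd36 (-0.047 to 0.15) and Angptl4 (-0.23 to 0.066) on D28, and Spp1 for the difference between days (-0.45 to 0.19) and between exposed days (-0.054 to 0.38).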
